A study of Mus musculus with 2 samples.

Results

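The interleukin-1 system was described through 8 genes of the 32286 features in the count matrices, chosen by symbol and by role: the agonists Il1a and Il1b, the receptor antagonist Il1rn, the signalling receptor Il1r1, the decoy receptor Il1r2, the co-receptor Il1rap, and Nlrp3 and Casp1 of the inflammasome. All 8 were found, each as 1 feature. The lungs came from BALB/c mice carrying 4T1 mammary carcinoma cells in the mammary fat pad and were profiled by single-cell RNA sequencing on day 14 after inoculation. The tumour was present in both groups: 1 library came from mice given the S100A4-11 antibody, and 1 library came from mice given an IgG antibody as control. The labels do not state how many animals each library pooled, the dose, or the dosing schedule.

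Interleukin-1 is a pair of inflammatory cytokines made as precursors. IL-1 beta is made mainly by myeloid cells after priming and is cut to its active form by caspase-1, which the NLRP3 inflammasome activates; IL-1 alpha is active without that cut. Both bind the receptor IL1R1, which needs the co-receptor IL1RAP to signal; the antagonist encoded by Il1rn occupies the receptor without signalling, and the decoy IL1R2 binds the ligands without a signalling domain. Transcripts do not show how much cytokine was processed or secreted.

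After filtering, 11750 S100A4-11 cells and 13658 IgG cells remained, with median depths of 3661 and 4028 UMIs (unique molecular identifiers, each counting 1 captured transcript). Clusters were named from marker genes into 23 classes, called "-like" because they rest on transcripts, of which 20 had at least 50 cells in each library; 8.26% of S100A4-11 cells and 13.7% of IgG cells stayed unnamed. Levels are given as UMIs of a gene per 1000000 UMIs of the class (CPM), and ratios are S100A4-11 over IgG. With 1 library per group there is no replicate and no test: intervals in parentheses are exact 95% intervals that cover counting error only, and a difference counts as a call where it reached 1.5-fold either way, its interval excluded 1 and both libraries together held 20 UMIs or more. The libraries shared 266 barcodes, of which 247 were kept cells, and leaving them out left the ratio of Il1b in neutrophil-like cells, given below, at 1.15. The 8 genes were kept out of the genes used for clustering.

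The start-site regions of Il1b, Il1a and Nlrp3, the agonists and the inflammasome sensor, are shown; they were chosen for these roles with the values known, and the regions of all 8 members were searched for the same motifs. All sequences are the 250 bases before a RefSeq start site in GRCm38.p6, written 5′ to 3′ on the strand of the gene. Capitals mark exact matches, on either strand, to the TATA box core TATAAA, to the PU.1 core GAGGAA (PU.1 is a myeloid transcription factor) or to the NF-kB consensus.
Il1b, chr2:129371140-129371389, minus strand: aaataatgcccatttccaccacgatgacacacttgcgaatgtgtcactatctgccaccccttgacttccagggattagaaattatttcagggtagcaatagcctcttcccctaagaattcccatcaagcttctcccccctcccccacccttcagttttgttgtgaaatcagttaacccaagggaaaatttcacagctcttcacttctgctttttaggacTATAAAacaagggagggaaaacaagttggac
Il1a, chr2:129309973-129310222, minus strand: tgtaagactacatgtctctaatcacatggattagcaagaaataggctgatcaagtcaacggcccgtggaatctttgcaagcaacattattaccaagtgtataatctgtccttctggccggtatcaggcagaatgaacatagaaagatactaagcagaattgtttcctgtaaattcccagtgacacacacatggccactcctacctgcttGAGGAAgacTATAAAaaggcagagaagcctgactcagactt
Nlrp3, upstream start site, chr11:59541319-59541568, plus strand: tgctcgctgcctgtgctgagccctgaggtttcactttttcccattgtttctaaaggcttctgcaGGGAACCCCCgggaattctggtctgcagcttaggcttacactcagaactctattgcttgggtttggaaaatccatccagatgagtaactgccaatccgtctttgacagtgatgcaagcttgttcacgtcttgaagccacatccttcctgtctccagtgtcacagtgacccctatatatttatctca
Nlrp3, downstream start site, chr11:59542436-59542685, plus strand: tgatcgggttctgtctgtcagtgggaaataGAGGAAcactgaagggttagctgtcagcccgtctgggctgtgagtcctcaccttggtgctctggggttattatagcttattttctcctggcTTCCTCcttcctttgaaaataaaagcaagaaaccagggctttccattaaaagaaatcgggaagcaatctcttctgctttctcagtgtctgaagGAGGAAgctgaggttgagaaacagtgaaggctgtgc
Il1b and Il1a each held a TATA box core, at -31 and -32 from the start site, and 12.4% of 32851 promoters held one in the same window. A PU.1 core stood at -41 of Il1a and at -220, -129 and -36 of the downstream Nlrp3 start site, and 23.3% of promoters held at least 1. The upstream Nlrp3 window held an NF-kB consensus match at -186, which 3.9% of promoters held. Of the members not printed, 1 of 2 Il1r1 windows held an NF-kB consensus match at -232 and the Casp1 window a PU.1 core at -108, while the 3 windows of Il1rn, that of Il1r2 and that of Il1rap held no match. A match is a description of these letters only, and no match says only that they are absent from this window.

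By GENCODE M21 on GRCm38, the agonists lie on chromosome 2 on the minus strand, Il1a at chr2:129299610-129309972 and Il1b at chr2:129364570-129371139, and the antagonist Il1rn lies on the same chromosome at chr2:24336853-24351494 on the plus strand. The receptors Il1r2 (chr1:40074079-40125231) and Il1r1 (chr1:40225080-40317257) are neighbours on chromosome 1. Il1rap lies at chr16:26581704-26730117, Nlrp3 at chr11:59541568-59566956 and Casp1 at chr9:5298517-5307265, all on the plus strand. An antisense gene, Il1bos, overlaps the 5′ end of Il1b at chr2:129369897-129375748. It had 116 CPM in S100A4-11 neutrophil-like cells and 96.6 CPM in IgG neutrophil-like cells, so how far reads of the pair were split depends on the strand setting of the counting, which is not given in the sources used here.

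Il1b was by far the most abundant of the 8 transcripts in neutrophil-like cells. It made up 24919 CPM (24815 to 25024) in the 2194 S100A4-11 neutrophil-like cells and 21644 CPM (21556 to 21732) in the 2523 IgG neutrophil-like cells. A UMI of Il1b was found in 2193 of the S100A4-11 cells and 2517 of the IgG cells, and after every cell was thinned to 500 UMIs it was still found in 99.3% and 98.5%. Neutrophil-like cells were 18.7% of S100A4-11 cells and 18.5% of IgG cells and held 74.9% and 71.8% of all Il1b UMIs. The next classes were far lower: immature granulocyte-like cells had 6408 and 5372 CPM, classical monocyte-like cells 5475 and 5996 CPM, and nonclassical monocyte-like cells 3786 and 3635 CPM, in S100A4-11 and IgG lungs. The order of the first 2 of these 3 classes was not the same in both libraries. In dendritic cell-like cells Il1b had 2430 and 2164 CPM. Macrophages had less, with 2122 and 1737 CPM in the interstitial macrophage-like class and 1295 and 1444 CPM in the alveolar one. The 52 S100A4-11 and 48 IgG basophil or mast cell-like cells had 5430 and 4032 CPM of Il1b, of which 5 cells of each library held 40.7% and 69.4%.

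In the 13 classes of lymphoid, endothelial, epithelial and mesenchymal cells, Il1b was found in 17.1% to 28.5% of cells over both libraries, and in 2.44% to 11.3% after thinning. T cell-like cells, which are not a known source of the cytokine, had it in 18.6% of S100A4-11 cells and 22.9% of IgG cells at median depths of 3979 and 3928 UMIs, against 3638 and 3866 UMIs in neutrophil-like cells. A share no higher than that of T cell-like cells was not read as expression, and the source of the Il1b UMIs in these 13 classes was not tested. The 5 cells with most Il1b in a library held 26.4% to 95.8% of the Il1b UMIs of these classes. S100a9, a calprotectin subunit that granulocytes make in large amounts, was read beside it. Il1b per UMI of S100a9 was 0.331 in S100A4-11 neutrophil-like cells and 0.276 in IgG neutrophil-like cells, and the 13 classes did not share 1 ratio. They ran from 0.201 in T cell-like cells to 2.34 in the class of innate lymphoid or gamma-delta T cells in the S100A4-11 library, and from 0.274 in alveolar epithelial-like cells of type 2 to 1.48 in B cell-like cells in the IgG library. General capillary endothelial-like cells had 0.483 and 0.543, B cell-like cells 1.28 and 1.48, and T cell-like cells 0.201 and 0.668. The ratio was 10.2 and 5.77 in classical monocyte-like cells and 24.2 and 9.79 in nonclassical monocyte-like cells, where S100a9 was low and Il1b high.

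**Figure D1:**
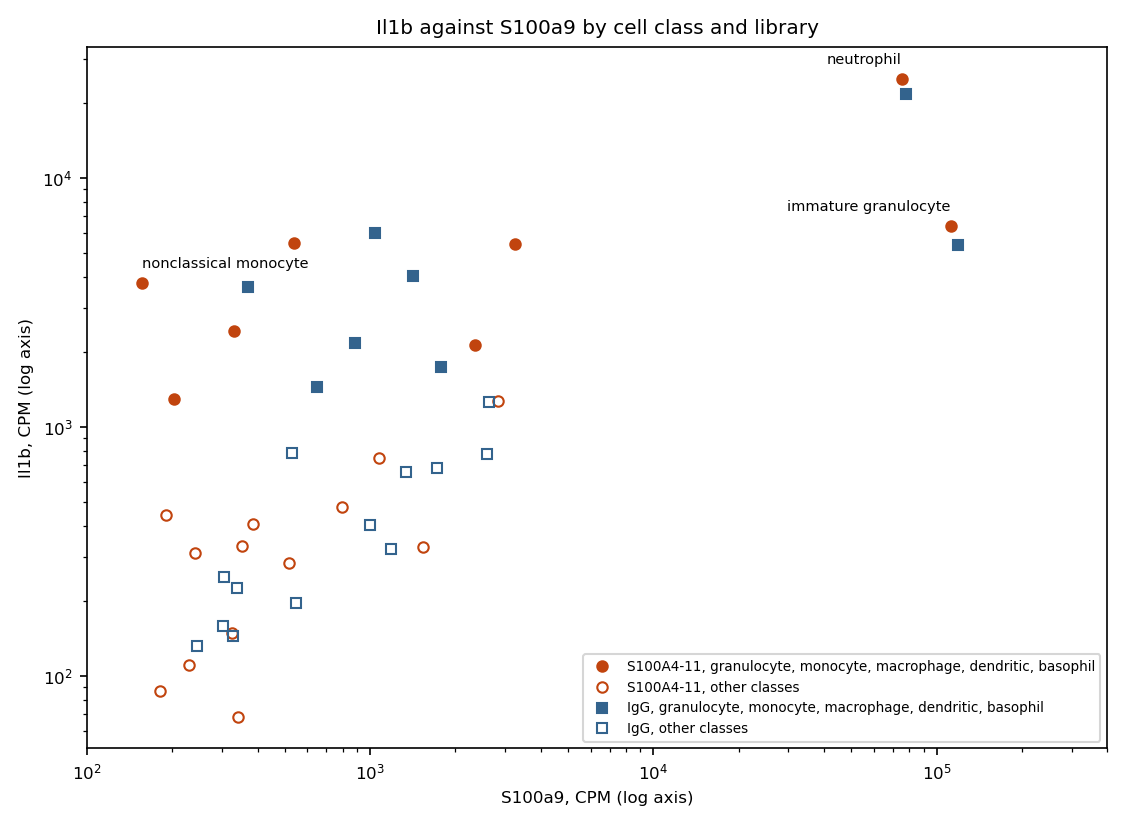
Level of Il1b against level of S100a9, both in CPM on log axes, for each cell class with S100A4-11 as circles and IgG as squares. Filled points are granulocyte, monocyte, macrophage, dendritic and basophil or mast cell-like classes and open points all others: monocyte-like cells stand high on Il1b at low S100a9, and neutrophil-like cells at 24919 and 21644 CPM of Il1b stand above all others.

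Il1a had a different distribution from Il1b and reached into the endothelium. Neutrophil-like cells had 337 CPM in S100A4-11 lungs and 267 CPM in IgG lungs, in 22.0% and 20.8% of cells, and alveolar macrophage-like cells had 270 and 332 CPM, in 52.1% and 56.4% of cells. The libraries put these 2 classes in opposite orders. Classical monocyte-like cells had 101 and 104 CPM; interstitial macrophage-like cells had 322 and 88.9 CPM, with 82.0% of the UMIs of that class in 5 cells in the S100A4-11 library. Aerocyte capillary endothelial-like cells, the capillary cells specialised for gas exchange, had 95 CPM (85.6 to 105) in S100A4-11 lungs and 97.0 CPM (88.9 to 106) in IgG lungs. A UMI of Il1a was found in 33.9% (30.2 to 37.8) of the 616 S100A4-11 aerocyte-like cells and 36.5% (33.0 to 40.1) of the 740 IgG aerocyte-like cells. General capillary endothelial-like cells, the other lung capillary type, had 3.11 and 9.47 CPM, in 1.2% and 2.59% of cells, at median depths of 3084 and 3114 UMIs against 3911 and 4681 UMIs in aerocyte-like cells. After thinning to 500 UMIs the shares were 6.66% and 5.81% in aerocyte-like cells, and 0.0602% and 0.647% in general capillary cells. Il1b did not separate the 2 capillary classes in this way: it was found in 21.3% and 22.4% of aerocyte-like cells and in 18.7% and 20.9% of general capillary cells. Aerocyte-like cells thus had 1.57 and 1.64 UMIs of Il1b per UMI of Il1a, against 73.9 and 81.0 in neutrophil-like cells. The 5 highest aerocyte-like cells held 7.73% and 8.81% of the class's Il1a UMIs.

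Il1rn, which encodes the receptor antagonist, was, as Il1b was, highest in neutrophil-like cells. It had 1898 CPM in S100A4-11 neutrophil-like cells and 1746 CPM in IgG neutrophil-like cells, was found in 82.8% and 82.5% of them, and 81.1% and 77.4% of all its UMIs were in this class. Alveolar macrophage-like cells came next by IgG level, with 268 and 270 CPM, and immature granulocyte-like cells had 309 and 250 CPM, so the libraries do not settle the order of these classes. Interstitial macrophage-like cells had 250 and 202 CPM, and classical monocyte-like cells 167 and 180 CPM. Nonclassical monocyte-like cells had 68.4 and 87.1 CPM. In general capillary endothelial-like cells Il1rn was found in 1.27% and 1.82% of cells.

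The balance of agonist to antagonist transcripts, UMIs of Il1a and Il1b per UMI of Il1rn, ran from 5.83 to 90.7 over myeloid classes. Each UMI of this 5′ assay counts a transcript end and does not scale with transcript length, but capture can differ between genes, so the balance is a relative measure. It was lowest in alveolar macrophage-like cells, at 5.83 (5.48 to 6.22) in S100A4-11 lungs and 6.58 (6.26 to 6.93) in IgG lungs. Interstitial macrophage-like cells had 9.79 and 9.03, and neutrophil-like cells 13.3 and 12.5. Immature granulocyte-like cells had 20.9 and 21.7, classical monocyte-like cells 33.3 and 33.9, and nonclassical monocyte-like cells 55.5 and 42.1. Dendritic cell-like cells had 71.0 and 40.3, and basophil or mast cell-like cells 70.1 and 90.7. These rest on 40 and 71 Il1rn UMIs in dendritic cell-like cells and on 25 and 12 in basophil or mast cell-like cells. The order of the 6 classes from alveolar macrophage-like to nonclassical monocyte-like cells was the same in both libraries, and the intervals of neighbours did not overlap.

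**Figure D2:**
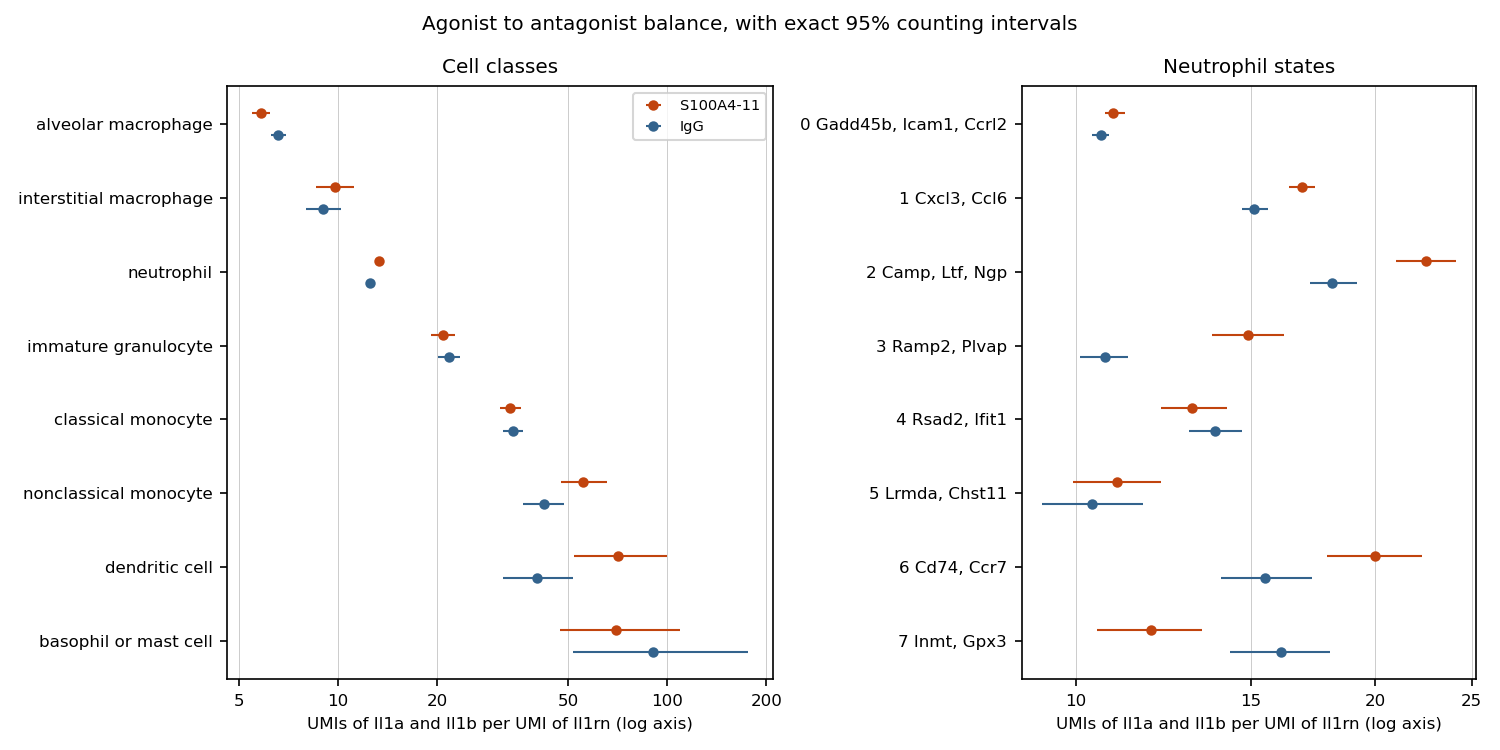
UMIs of Il1a and Il1b per UMI of Il1rn, on log axes with exact 95% counting intervals, for 8 myeloid classes on the left and 8 neutrophil states on the right, with S100A4-11 above IgG in each row. Alveolar macrophage-like cells stand lowest at 5.83 and 6.58, and in the states the Gadd45b, Icam1 and Ccrl2 state stands lower than the Camp, Ltf and Ngp state in both libraries.

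The signalling receptor Il1r1 had its highest levels in fibroblasts and was also counted in smooth muscle, epithelial and endothelial classes. Of the 20 classes it was highest in adventitial fibroblast-like cells, with 95.6 CPM (74.1 to 121) in S100A4-11 lungs and 78.5 CPM (64.5 to 94.7) in IgG lungs, in 41.4% and 35.6% of cells. Alveolar fibroblast-like cells had 58.4 and 55.5 CPM. Below them, airway epithelial-like cells (50.9 and 27.8 CPM), smooth muscle cell-like cells (32.6 and 40.8 CPM), large-vessel endothelial-like cells (37.3 and 31.0 CPM) and alveolar epithelial-like cells of type 2 (30 and 35.4 CPM) overlapped in range. Aerocyte-like cells had 23.6 and 19.9 CPM, and general capillary cells 15.6 and 12.5 CPM. Unnamed cells held 18.6% of all Il1r1 UMIs in S100A4-11 lungs and 24.0% in IgG lungs, against 14.2% and 15.3% in alveolar fibroblast-like cells. The class of innate lymphoid or gamma-delta T cells had 0 UMIs among 82 S100A4-11 cells, which allows up to 10.2 CPM, and 19 UMIs among 123 IgG cells, or 39.5 CPM (23.8 to 61.6), all of them in 5 cells. In neutrophil-like cells Il1r1 had 3 UMIs among 2194 S100A4-11 cells and 13 UMIs among 2523 IgG cells, or 0.344 and 1.21 CPM.

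The decoy Il1r2 was nearly the reverse. Neutrophil-like cells had 2978 CPM in S100A4-11 lungs and 3033 CPM in IgG lungs, in 95.5% and 96.5% of cells, and held 84.2% and 79.8% of all Il1r2 UMIs. Immature granulocyte-like cells had 1244 and 1474 CPM. No other of the 20 classes passed 218 CPM. In classical monocyte-like cells, at 94.8 and 124 CPM, Il1r2 was found in 32.5% and 40.5% of cells, and in dendritic cell-like cells, at 131 and 218 CPM, in 45.0% and 42.4%. The 25986 and 32553 Il1r2 UMIs of neutrophil-like cells stood against the 3 and 13 UMIs of Il1r1. In alveolar fibroblast-like cells there were 2.26 UMIs of Il1r1 per UMI of Il1r2 in S100A4-11 lungs and 1.42 in IgG lungs, with Il1r2 in 2.90% and 3.76% of cells. In adventitial fibroblast-like cells the same ratio was 0.985 and 3.44; there Il1r2 went with S100a9, at 794 CPM in S100A4-11 lungs and 305 CPM in IgG lungs, and the part of free RNA in it was not tested.

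The co-receptor Il1rap was found more widely and at lower levels. Neutrophil-like cells had 218 CPM in S100A4-11 lungs and 254 CPM in IgG lungs, in 46.9% and 55.4% of cells, and immature granulocyte-like cells 90.3 and 109 CPM. All other of the 20 classes lay between 3.18 and 45.3 CPM. Of the classes with Il1r1, alveolar fibroblast-like cells had 29.2 and 45.2 CPM of Il1rap and aerocyte-like cells 22.8 and 26.4 CPM.

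Nlrp3, the sensor of the inflammasome, was high in 2 granulocyte classes. Basophil or mast cell-like cells had 1772 CPM (1628 to 1925) in S100A4-11 lungs and 1906 CPM (1745 to 2079) in IgG lungs, in 94.2% of 52 cells and 95.8% of 48 cells. Neutrophil-like cells had 1579 CPM (1553 to 1606) and 1367 CPM (1345 to 1389), in 85.1% and 85.6% of cells. Classical monocyte-like cells had 340 and 359 CPM, and alveolar macrophage-like cells 317 and 390 CPM. In the basophil or mast cell-like cells Il1rn was found in 5.77% and 4.17% of cells and Il1r1 had 0 UMIs in both libraries. Their S100a9 level was 3235 and 1415 CPM, against 75299 and 78301 CPM in neutrophil-like cells.

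Casp1, which encodes the protease that cuts the IL-1 beta precursor, did not pass 79.6 CPM in any of the 20 classes. Classical monocyte-like cells had 74.4 CPM in S100A4-11 lungs and 70.5 CPM in IgG lungs, and nonclassical monocyte-like cells 61.4 and 79.6 CPM. Neutrophil-like cells had only 34.3 and 41.9 CPM, in 11.9% and 15.1% of cells, near the 38.0 and 37.4 CPM of B cell-like cells. They held 16.7% and 20.1% of all Casp1 UMIs, against 74.9% and 71.8% for Il1b.

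**Figure D3:**
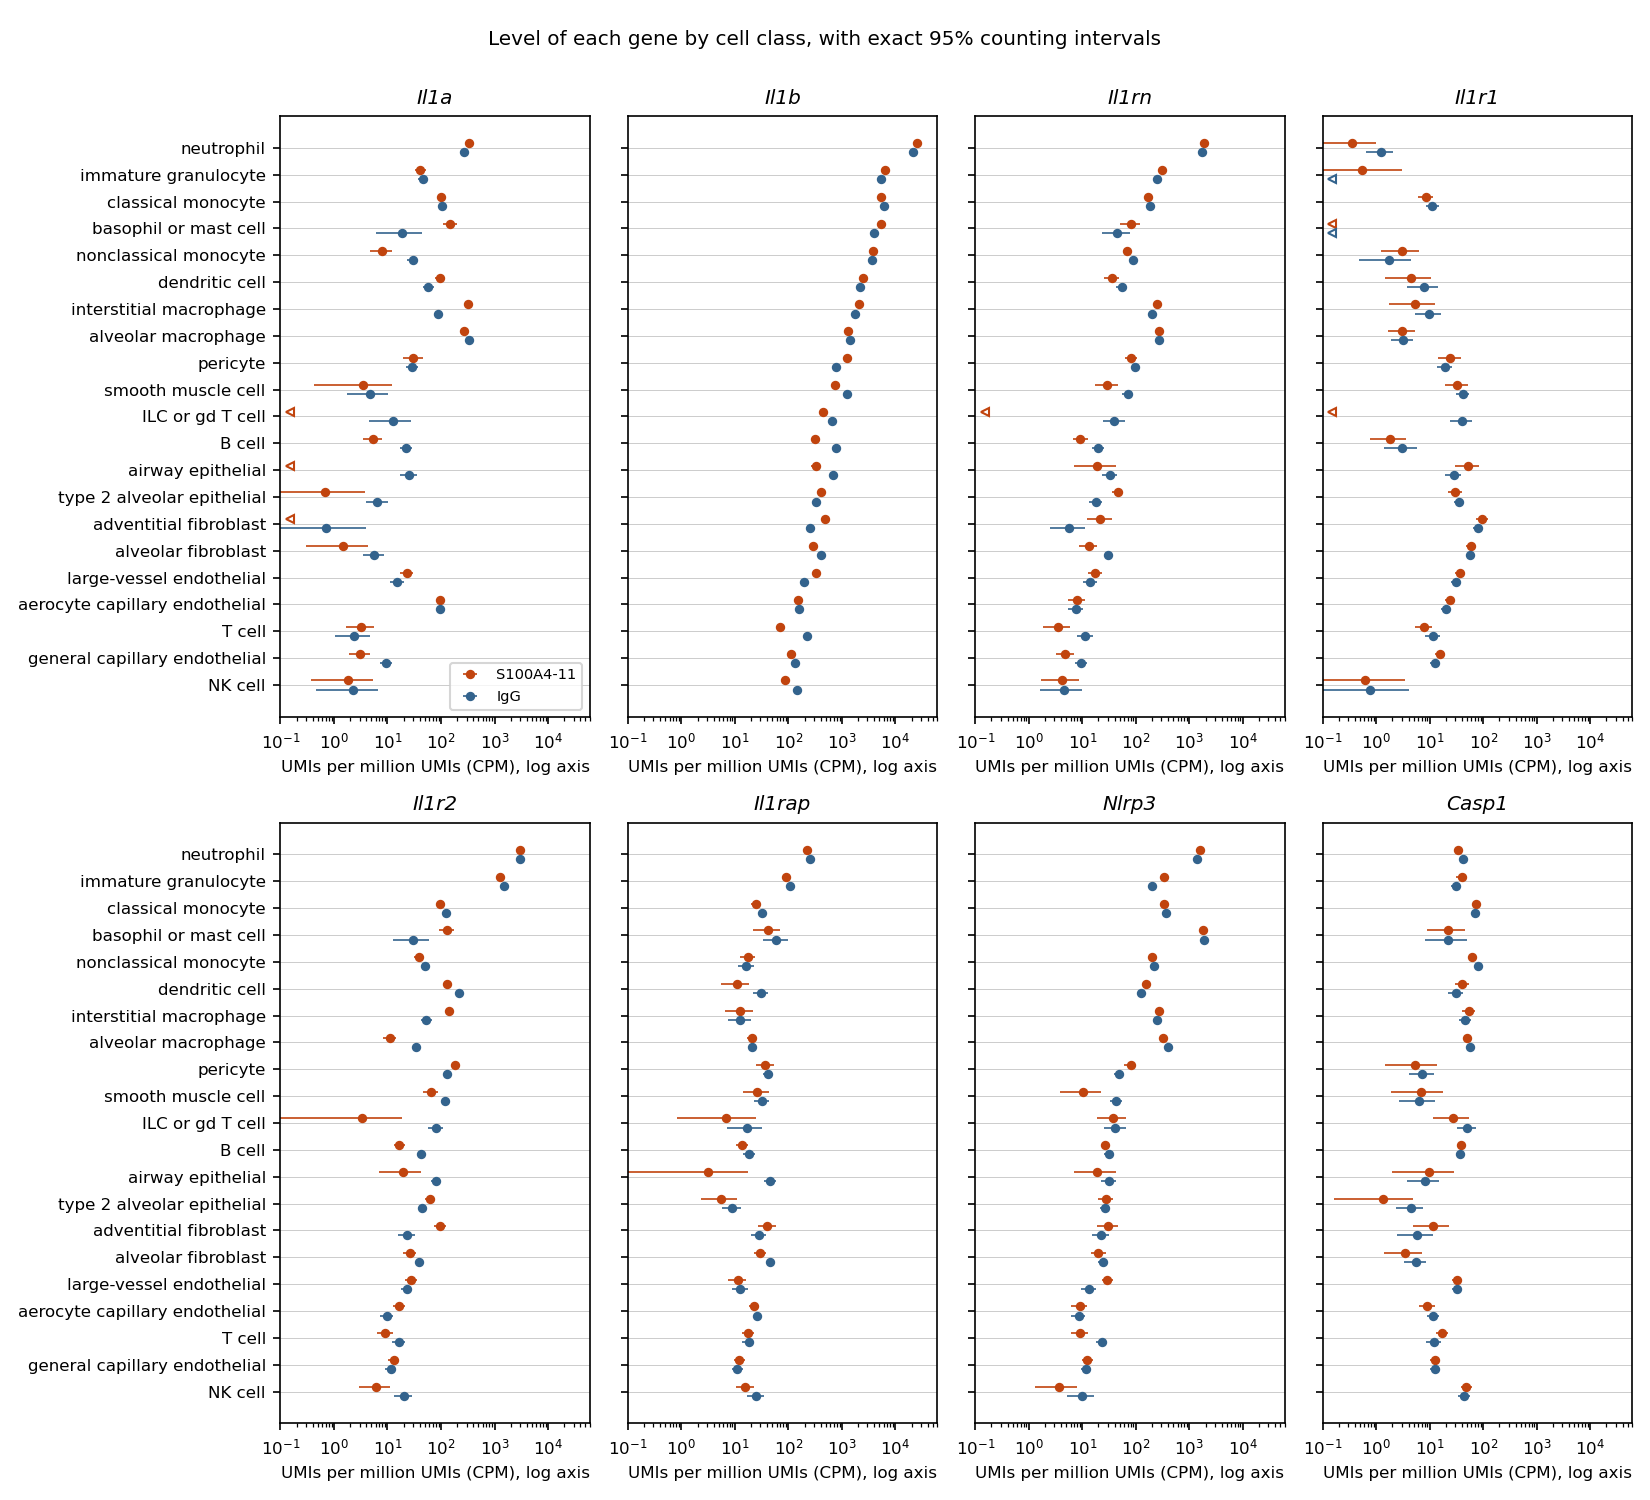
Level of each gene in CPM on a log axis by cell class, with S100A4-11 drawn above IgG, exact 95% counting intervals, and open triangles at the left edge for 0 UMIs; intervals below 0.1 CPM are cut at the axis. Il1b, Il1rn, Il1r2 and Nlrp3 are highest at the top in granulocyte classes, Il1r1 is highest in fibroblasts, and Il1a stands at 95 and 97.0 CPM in aerocyte-like cells.

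Across the 20 classes, log2(CPM + 1) levels of Il1b and Nlrp3 had a Pearson r of 0.947 and those of Il1b and Il1rn 0.912, while Il1b and Il1r1 had -0.471. These are descriptions over 20 classes that share libraries and free RNA. The genes most like Il1b in this measure, among genes of at least 50 CPM in a class, were Cd14 (0.974), the lipopolysaccharide co-receptor, Ptafr (0.970), the platelet-activating factor receptor, and Gm5150 (0.969). Those most like Il1rn were Siglece, C5ar1 and Hcar2 (0.956 to 0.962). Nlrp3 was most like the chemokine gene Cxcl2, Nfam1 and Lilrb4a (0.959 to 0.961), and Il1r2 most like Dhrs9, Acod1 and Wfdc17 (0.932 to 0.952). Il1r1 was most like Auts2, Zfyve21 and Maged1 (0.917 to 0.932). For Il1a the nearest were Slc15a3, Spp1 and Pik3r6 (0.823 to 0.877), for Il1rap Rab7, Grina and Slfn4 (0.852 to 0.886), and for Casp1 Arpc1b, Tm6sf1 and Skil (0.882 to 0.897).

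Neutrophil-like and immature granulocyte-like cells together, 2377 in S100A4-11 lungs and 2776 in IgG lungs, fell into 8 states when clustered alone. State 0 was led by Gadd45b, Icam1, Csf1 and Ccrl2 and carried 6 activation markers. State 1 was led by Cxcl3 and Ccl6 and matched no marker list. State 2 was led by the granule protein genes Camp, Ltf and Ngp and had 6 markers of immature granulocytes and 5 of resting neutrophils. Of its 635 cells, 352 were in the immature granulocyte-like class, against 0 of 1932 cells in state 0. A contrast of states 0 and 2 is therefore in part a contrast of those classes. State 4 was led by the interferon-stimulated genes Rsad2 and Ifit1. States 3 and 7 were led by endothelial genes (Ramp2, Plvap) and fibroblast genes (Inmt, Gpx3), and state 6 by Cd74 and Ccr7; state 5 was shallow, with a median of 1450 UMIs. States 1, 3, 5, 6 and 7 carried no name.

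In CPM, all members except Casp1 and Il1r1 were higher in the activated state 0 than in the granule-gene state 2 in both libraries. Cells of state 2 were deeper, with a median of 8451 UMIs against 3134 in state 0. The median S100A4-11 and IgG cell had 92 and 87 UMIs of Il1b in state 0, against 56 and 57 in state 2. For Il1r2 these medians were 9 and 9 against 10 and 13. Il1rap was found in 42.1% and 47.7% of cells against 45.4% and 61.5%, and after thinning in 11.2% and 11.2% against 5.20% and 5.74%. Il1b had 31996 CPM in S100A4-11 cells of state 0 and 29375 CPM in IgG cells of state 0, against 8423 and 7119 CPM in state 2, which is 3.80-fold (3.74 to 3.86) and 4.13-fold (4.07 to 4.18). Il1rn had 2970 and 2814 CPM against 375 and 395 CPM, a wider span of 7.91-fold (7.37 to 8.50) and 7.12-fold (6.73 to 7.54). Nlrp3 had 2212 and 2088 CPM against 335 and 309 CPM, or 6.60-fold and 6.76-fold. Il1a had 479 and 476 CPM against 26.0 and 51.0 CPM, or 18.5-fold and 9.33-fold. Il1r2 differed less, with 3798 and 3578 CPM against 1405 and 1638 CPM, and Il1rap had 220 and 250 CPM against 90.2 and 132 CPM. Casp1 had 35.3 and 42.9 CPM in state 0 against 40.1 and 28.7 CPM in state 2, and the libraries differed in direction. The interferon state 4 had 28628 and 24061 CPM of Il1b and 2230 and 1764 CPM of Il1rn. The folds depend on where states are divided: over both libraries Il1b was 4.02-fold higher in the activated state, and 12.1-fold and 19.2-fold when the cells were divided at Leiden resolutions of 0.3 and 1, which set apart smaller granule-gene states of 123 and 73 cells.

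**Figure D4:**
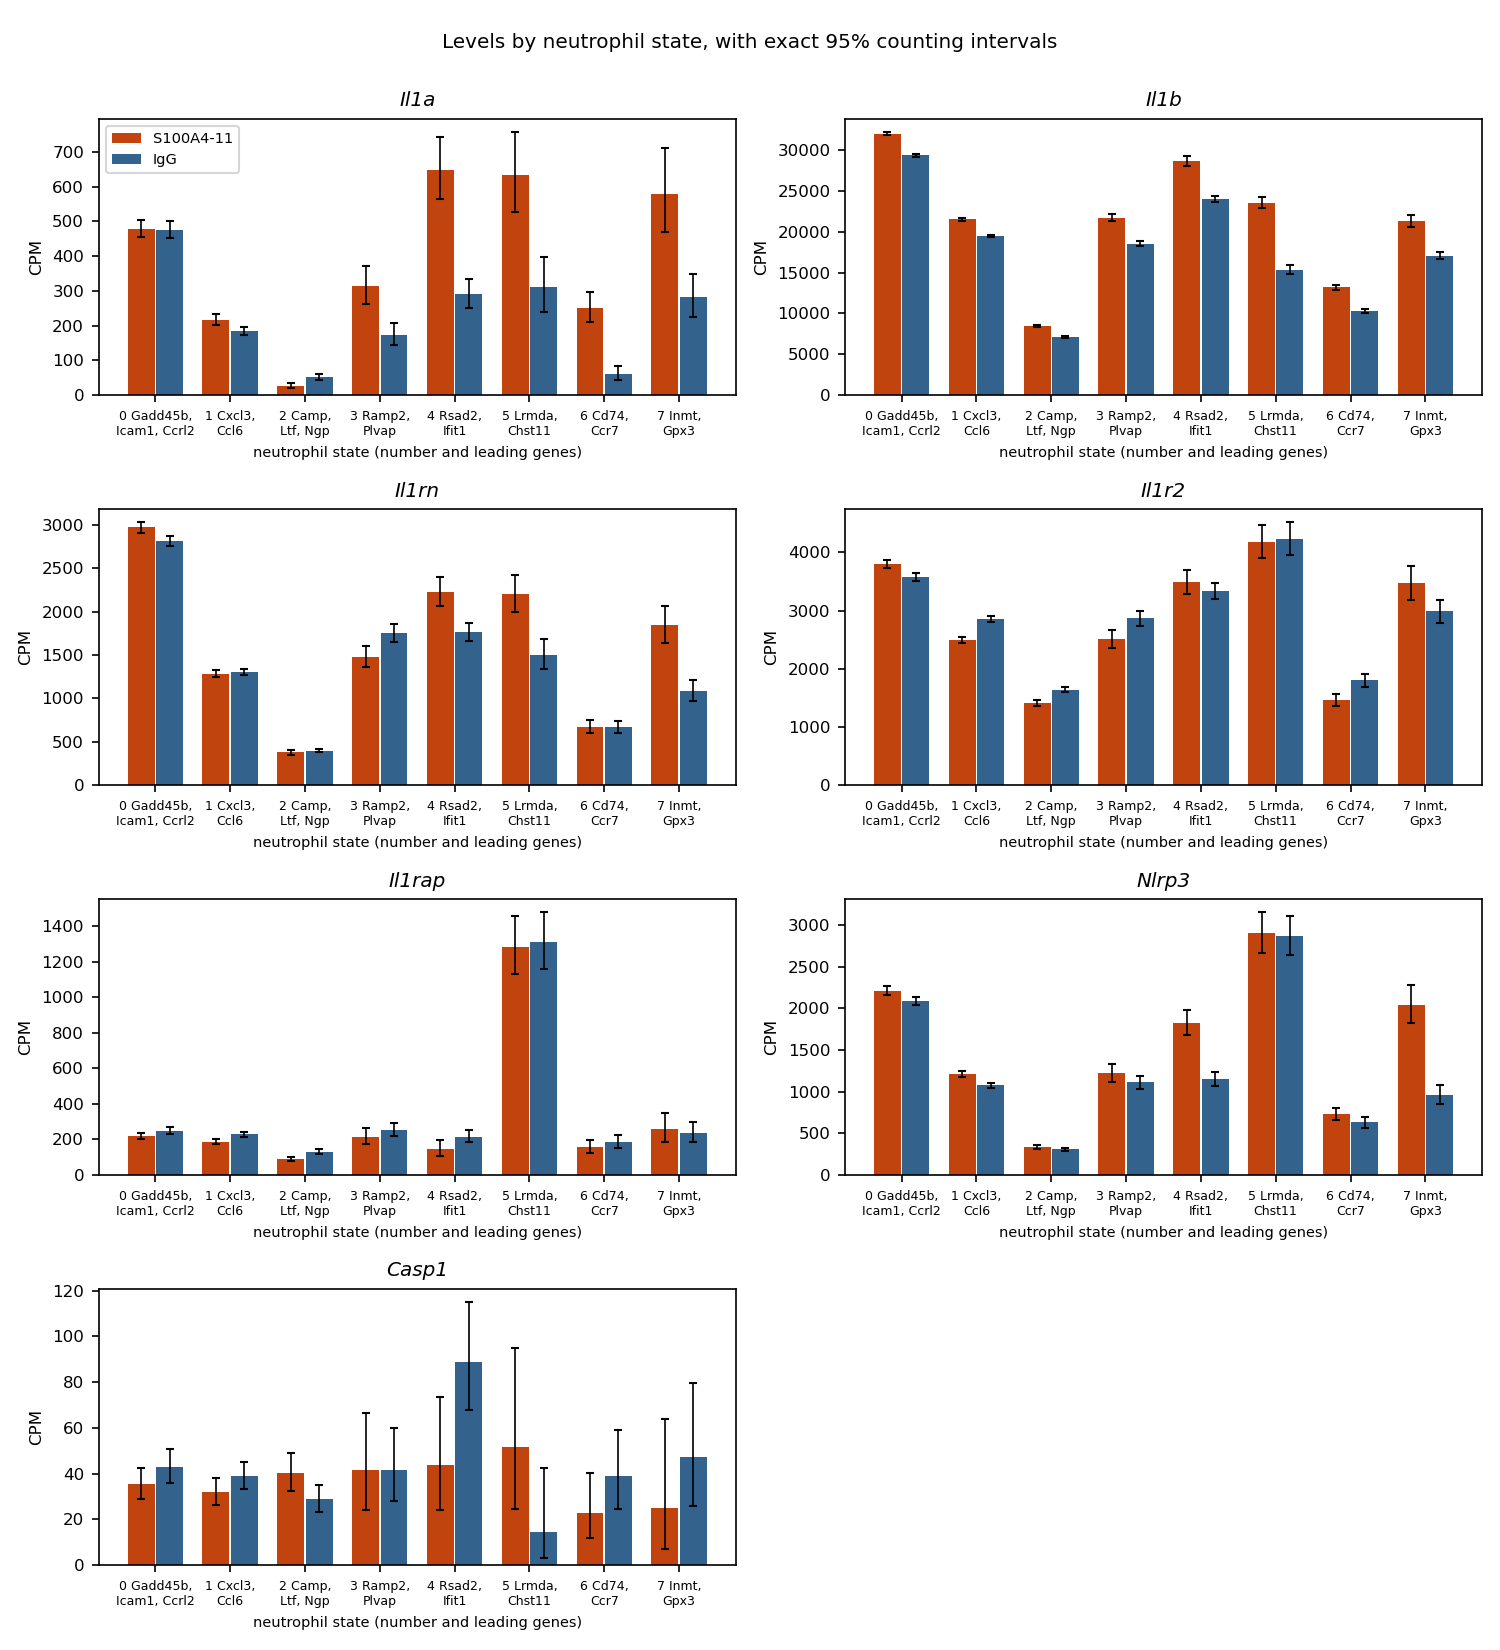
Level in CPM of 7 genes in 8 neutrophil states, with S100A4-11 bars left of IgG bars and exact 95% counting intervals; Il1r1 is left out because it had at most 8 UMIs in any state of a library. Il1b, Il1rn, Nlrp3 and Il1a are low in state 2, and Il1rap is highest in the shallow state 5, at 1285 and 1313 CPM.

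Il1rn differed more between the states than Il1b, and the agonist to antagonist balance was lower in the activated state. It was 10.9 (10.7 to 11.2) in S100A4-11 cells and 10.6 (10.4 to 10.8) in IgG cells of state 0, 16.9 and 15.1 in state 1, and 22.5 (21 to 24.1) and 18.1 (17.2 to 19.2) in state 2. Interferon state 4 had 13.1 and 13.8. The state with the highest Il1b level had the lowest balance of these 4 states. Shallow state 5 had 1285 and 1313 CPM of Il1rap and 2905 and 2864 CPM of Nlrp3, and its Il1b was 23558 CPM in S100A4-11 cells and 15337 CPM in IgG cells, called higher at 1.54 (1.47 to 1.61), where 10.1% of 2367 genes were past the fold.

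Between the libraries, no member was called in neutrophil-like cells, where 6.78% of 9993 genes were. Il1r1, at 0.344 CPM in S100A4-11 cells and 1.21 CPM in IgG cells, had a ratio of 0.284 (0.0519 to 1.03), but from 3 and 13 UMIs, too few for a call. Il1b was 1.15 (1.14 to 1.16), Nlrp3 1.16 (1.13 to 1.18), Il1a 1.26 (1.2 to 1.33) and Il1rn 1.09 (1.06 to 1.11) times the IgG level. When each library was clustered alone Il1b stood at 1.05 and Il1rn at 0.965. Il1r2 was at 0.982 (0.966 to 0.998), Il1rap at 0.859 (0.809 to 0.911) and Casp1 at 0.817 (0.704 to 0.948). The balance of agonist to antagonist was 1.06 times that of IgG neutrophil-like cells, with an approximate interval, not an exact one, of 1.04 to 1.08. State 0 held 41.1% (39.2 to 43.2) of the S100A4-11 cells and 34.4% (32.6 to 36.2) of the IgG cells. Within states Il1b stood at 1.09 (1.08 to 1.10) in state 0, 1.10 (1.09 to 1.11) in state 1 and 1.18 (1.16 to 1.21) in state 2, and Il1rap at 0.880 (0.793 to 0.976), 0.819 (0.742 to 0.904) and 0.686 (0.579 to 0.810) in the same states. In states 0 and 1 no member was called, against 4.65% and 5.2% of genes. In state 2 only Il1a was, at 26.0 CPM in S100A4-11 cells and 51.0 CPM in IgG cells, against 5.49% of genes. In interferon state 4 Il1a (649 and 291 CPM) and Nlrp3 (1828 and 1152 CPM) were higher and Casp1 (43.9 and 89.0 CPM, from 14 and 60 UMIs) lower in S100A4-11 cells, against 6.04% of genes. Il1a was also called higher in the unnamed states 3 (313 and 174 CPM), 5 (635 and 311), 6 (250 and 60.4) and 7 (580 and 281), where 6.32%, 10.1%, 7.2% and 10.8% of genes were past the fold. A few cells held much of the Il1a of these states. The 5 cells with most Il1a held 67.1% of its UMIs in S100A4-11 cells and 46.9% in IgG cells of state 4. Such cells held 60.2% and 51.2% in state 3, 86.2% and 64.1% in state 5, 71.8% and 64.7% in state 6, and 76.3% and 94% in state 7. The calls within states were not retaken without those cells. In state 5 Il1a was found in 14.6% of S100A4-11 cells and 15.9% of IgG cells, so the share did not follow the level there. The share was higher in S100A4-11 cells in state 3 (28.6% and 21.2%), state 4 (31.6% and 21.2%), state 6 (33.3% and 19.0%) and state 7 (37.1% and 14.8%). The intervals of these shares overlapped between the libraries in each state. After thinning the order turned in state 5 (9.38% and 6.19%) and state 6 (8.77% and 9.52%) and was kept in states 3, 4 and 7. State 7 further had Il1rn (1845 and 1080 CPM) and Nlrp3 (2044 and 961 CPM) higher, from 35 S100A4-11 cells and 54 IgG cells, with 50.7% and 39.5% of the Il1rn UMIs and 33.5% and 26.8% of the Nlrp3 UMIs in 5 cells.

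Over all classes, 139 of the 160 pairs of member and class had 20 UMIs. Of these, 14 were called higher and 31 lower, or 45 of 139, against 6.9% of 195530 pairs over all genes. This share and the others over all genes were not matched for UMI number, and genes with more UMIs have narrower intervals. Il1r1, with 12 classes, and Casp1, with 15, had no called class. In the 7 granulocyte, monocyte, macrophage and dendritic classes 9 of 51 pairs were called, against 5.93%, and in the other 13 classes 36 of 88, against 7.38%. In those 13 classes Il1b was called in 8, and S100a9 lay on the same side of 1 in 6 of the 8. That tally takes no account of size: S100a9 was at 0.898 in airway epithelial-like cells, beside Il1b at 0.482. In pericyte-like cells S100a9 was at 1.09, beside Il1b at 1.64. The exceptions were T cell-like cells (Il1b 0.304, S100a9 1.01) and large-vessel endothelial-like cells (Il1b 1.7, S100a9 0.645). B cell-like cells had 310 CPM of Il1b in S100A4-11 lungs and 787 CPM in IgG lungs, with S100a9 at 241 and 531 CPM and 6.01% of genes past the fold. Without the 5 cells of each library with most UMIs of the gene the number called was 21 over all classes, against 45, and 2 in the 7 classes, against 9. The share over all genes was not taken under that alternative, so the shares above cannot be set against these lower counts. The part of free RNA in the ratios of the called pairs was not tested.

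Of the 9 called pairs in the 7 classes, 1 was called under all alternatives: Il1r2 in alveolar macrophage-like cells, at 11.0 CPM in S100A4-11 lungs and 33.9 CPM in IgG lungs, a ratio of 0.326 (0.232 to 0.448), where 4.94% of genes were past the fold. There S100a9 was 202 and 651 CPM, a ratio of 0.310, and Il1r2 was found in 3.01% and 6.33% of cells. Nlrp3 in immature granulocyte-like cells was 337 and 201 CPM, a ratio of 1.67 (1.49 to 1.88) beside 7.87% of genes past the fold, but 0.556 when each library was clustered alone. Il1a in interstitial macrophage-like cells was 322 and 88.9 CPM, with 82.0% and 49.2% of its UMIs in 5 cells of each library, and was found in 19.2% and 26.0% of cells; 6.85% of genes were past the fold in that class. The other called pairs each lost their call or changed direction under at least 1 alternative. They were Il1a in nonclassical monocyte-like cells (7.84 and 29.9 CPM, with 4.71% of genes past the fold), Il1r2 in interstitial macrophage-like cells (142 and 53.5 CPM), and in dendritic cell-like cells Il1a (96.1 and 58.3 CPM), Il1rn (35.6 and 55.2), Il1r2 (131 and 218) and Il1rap (10.7 and 30.3), with 7.23% of genes past the fold. Il1r1, the receptor on the tissue side, had these ratios in the 6 named classes with most of its UMIs: 1.05 (0.833 to 1.32) in alveolar fibroblast-like cells, 1.18 (0.887 to 1.58) in aerocyte-like cells, 1.24 (0.921 to 1.68) in general capillary cells, 1.2 (0.89 to 1.62) in large-vessel endothelial-like cells, 1.22 (0.885 to 1.66) in adventitial fibroblast-like cells and 0.846 (0.581 to 1.21) in the alveolar epithelial-like cells of type 2. These intervals cover counting error only, so with 1 library per group they set no bound on a difference between the treatments.

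**Figure D5:**
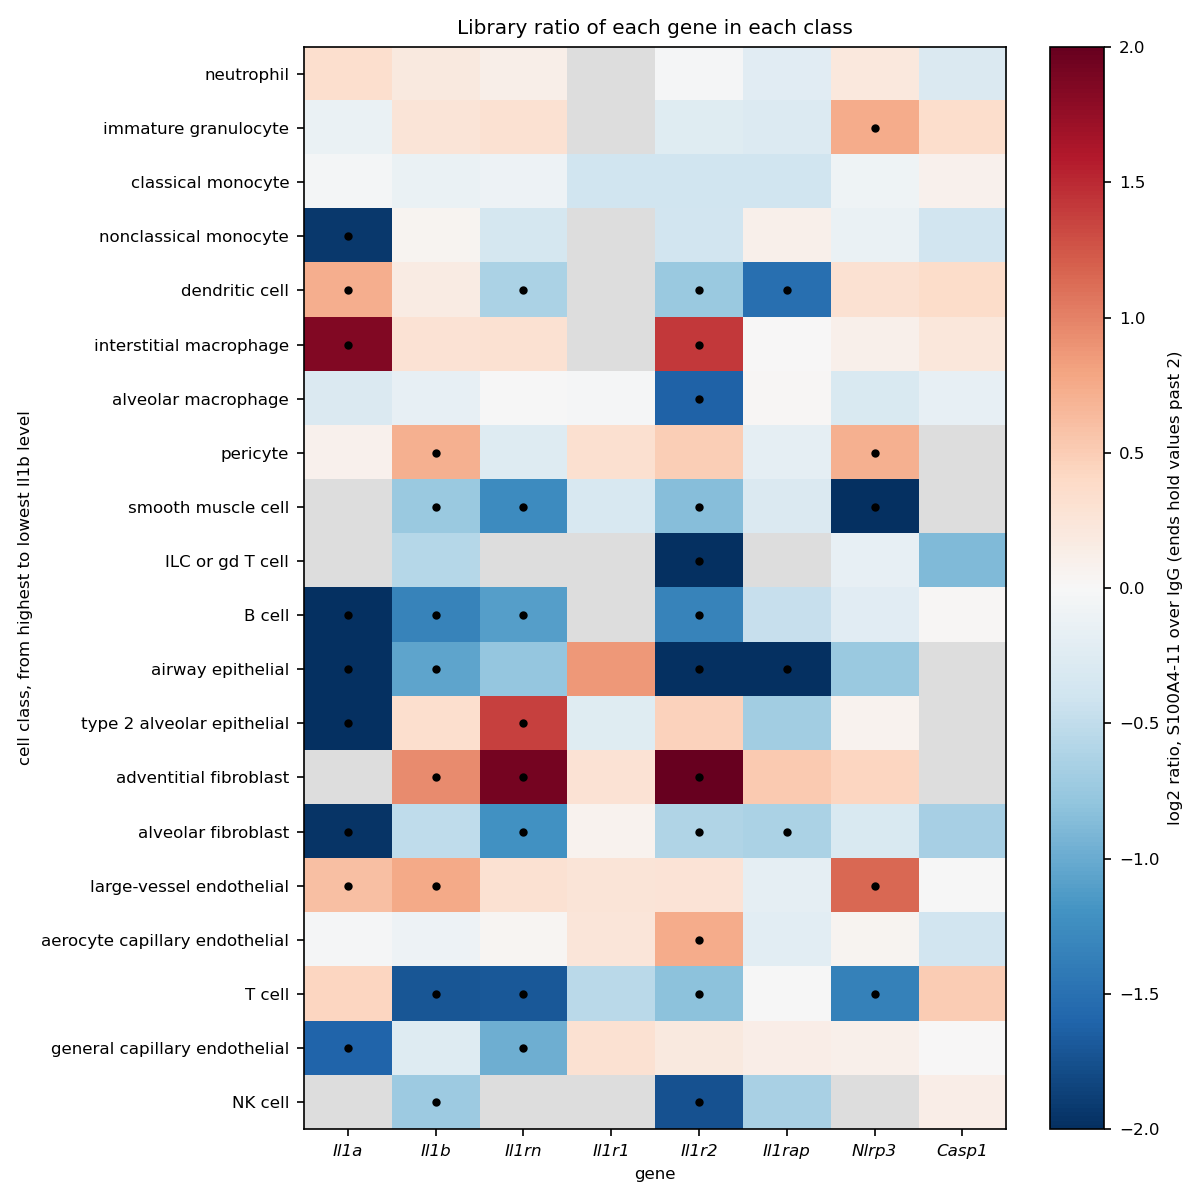
Log2 ratio of S100A4-11 over IgG for each gene (columns) in the 20 classes (rows, from highest to lowest Il1b), with dots on the 45 called pairs, grey where both libraries together had under 20 UMIs, and colours ending at 2 in either direction. The rows for neutrophil-like and classical monocyte-like cells have no dot, and most dots lie in classes where Il1b is low.

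The other genes of the pathway were read in 4 classes from lists chosen by function. Of 13 genes of receptor signalling, such as the adaptor Myd88 and the kinase gene Irak2, none was called in neutrophil-like cells, against 6.78% of genes, in classical monocyte-like cells, against 4.13%, or in general capillary cells, against 5.38%. In alveolar fibroblast-like cells, against 9.77%, 1 of 12 was called, Peli1, a ubiquitin ligase gene, at 63.8 CPM in S100A4-11 lungs and 105 CPM in IgG lungs. The list's median log2 ratio was 0.09, 0.03, 0.02 and -0.21 in these 4 classes in this order, where the medians of all genes were -0.01, -0.02, -0.02 and -0.05. Myd88 had 284 and 267 CPM in neutrophil-like cells and Irak2 227 and 220 CPM in classical monocyte-like cells. Of 12 inflammasome and pore genes, all 12 were measurable in neutrophil-like cells and 5 in alveolar fibroblast-like cells. Nlrp1b was lower in neutrophil-like cells, at 3.90 and 6.43 CPM, against 5.31% of all genes called lower. Casp4 was lower in alveolar fibroblast-like cells, at 27.7 and 41.7 CPM, against 7.62%. Nlrp1b kept its call under all 12 alternatives, but Casp4, at a ratio of 0.666, under 3 of 12, with ratios up to 0.905. None was called in classical monocyte-like or general capillary cells. The list's medians in the 4 classes were -0.12, -0.02, -0.03 and -0.16. Txnip was the highest of them in neutrophil-like cells, at 319 and 342 CPM, and Casp4, the gene of the inflammatory caspase-11, had 251 and 267 CPM there, above the 34.3 and 41.9 CPM of Casp1.

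Of the other IL-1 family genes, Il1f9, which encodes IL-36 gamma, was the highest in neutrophil-like cells, at 530 CPM in S100A4-11 lungs and 449 CPM in IgG lungs, a ratio of 1.18 (1.13 to 1.23). Called lower were 1 of 7 in neutrophil-like cells, 2 of 4 in classical monocyte-like cells, 1 of 4 in general capillary cells and 3 of 8 in alveolar fibroblast-like cells, against 5.31%, 2.11%, 4.28% and 7.62% of all genes called lower in these classes, and none was called higher; the medians were -0.14, -0.81, -0.19 and -1.01. Il18bp, which encodes the inhibitor of IL-18, was lower in neutrophil-like cells (14.6 and 25.1 CPM) and in classical monocyte-like cells (3.28 and 6.47 CPM), as was Il1f9 in the monocytes (3.07 and 9.27 CPM) and Il18 in general capillary cells (0.778 and 4.08 CPM). In alveolar fibroblast-like cells Il18, Il18rap and Il1rl1 were called lower from 3, 3 and 0 UMIs in S100A4-11 lungs and 31, 32 and 22 UMIs in IgG lungs. Of 7 priming genes, Nfkb1 (97.8 and 155 CPM) and Tlr2 (8.27 and 17.9 CPM) were lower in alveolar fibroblast-like cells and Tlr2 in general capillary cells (6.84 and 12.8 CPM), which is 2 of 7 against 7.62% of all genes called lower and 1 of 7 against 4.28%, while Nfkb1 had 271 and 250 CPM in neutrophil-like cells. Their medians in the 4 classes were 0.06, 0.03, 0.01 and -0.44.

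Several of the genes that IL-1 is known to induce in tissue cells were lower in the S100A4-11 library in the 2 tissue classes read, and how many depended on how the cells were clustered. In alveolar fibroblast-like cells 6 of 10 were lower and none higher: Nfkbiz (113 and 219 CPM), Tnfaip3 (33.6 and 79.6), Icam1 (147 and 236), Cxcl2 (231 and 405), Ccl2 (10.2 and 31.4) and Il6 (1.95 and 8.66). The median log2 ratio over the 10 was -0.74, against -0.05 over 11866 genes. Of those 11866 genes 7.62% were called lower. The 6 were 2 at Leiden resolution 0.5 and 3 with each library clustered alone, and 5 or 6 under the other alternatives. Nfkbiz was called lower under all 12 alternatives, with ratios of 0.444 to 0.638, while Ccl2 stood at 1.18 at resolution 0.5. Il6 kept its call under 11 of the 12, Ccl2 under 10, Tnfaip3 under 9, Icam1 under 8 and Cxcl2 under 7. In general capillary cells 3 of 7 were lower and none higher, namely Tnfaip3 (29.2 and 46.2 CPM), Cxcl2 (71.1 and 141) and Cxcl1 (3.73 and 7.43), with a median of -0.46 against -0.02 and 4.28% of 12582 genes called lower. The 3 were 0 with each library clustered alone, where Cxcl1 stood at 1.08, and 5 at resolution 1; with at least 500 genes per cell Cxcl2 stood at 1.14. In classical monocyte-like cells the acute-phase gene Saa3 (187 and 555 CPM) and the chemokine gene Cxcl1 (443 and 694 CPM) were lower, of 11, and in neutrophil-like cells Saa3 (133 and 225 CPM) and Ccl2 (3.09 and 6.43 CPM), of 10, against 2.11% and 5.31% of all genes called lower; the medians there were -0.15 and 0.05. Ccl2 in neutrophil-like cells stood at 1.5 with doublets kept and 1.02 at resolution 1. Other signals also induce these genes. Cxcl2 had 22112 and 22000 CPM in neutrophil-like cells, and S100a9 had 517 and 997 CPM in alveolar fibroblast-like cells and 229 and 244 CPM in general capillary cells; the part of free RNA in these ratios was not tested.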

How the data were processed

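Each library was deposited as a sparse matrix of raw UMI counts for genes and barcodes. A 10x Genomics 5′ kit and DNBseq sequencing were used, per the labels' protocols, whose text speaks of tumour where titles and tissue labels say lung. Per the submitters' processing notes, the authors used Cell Ranger 7.1.0 and mm10. The S100A4-11 matrix held 12506 barcodes and 64695542 UMIs and the IgG matrix 14411 barcodes and 85458143 UMIs; more UMIs give narrower intervals.

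Barcodes with under 200 genes (101 and 67) or over 15% mitochondrial UMIs (40 and 59), and doublets called by Scrublet in Scanpy 1.11.5 (615 and 627), were removed. Cells of both libraries were clustered together on 2000 variable genes, 30 components and 15 neighbours at Leiden resolution 2 (leidenalg 0.10.2), granulocyte classes again at 0.5 into states; the 8 genes and the gene lists were kept out of the variable genes. This gave 54 clusters, of which 13 stayed unnamed. Naming a cluster took 3 or more markers of a class, each seen in 25% of the cells and 2-fold above other cells; it was left unnamed where its leading genes held no marker or markers of another lineage were also high; this rule was set after the clusters were seen. No correction for free RNA was made. The members and lists were chosen with earlier results of these data known.

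Counts were summed per class and library, and shares were also taken after thinning each cell to 500 UMIs. Levels have exact Poisson intervals, shares exact Clopper-Pearson intervals and ratios exact conditional intervals (SciPy 1.17.1). The agonist to antagonist balance of one library over the other has a normal approximation on the log scale instead. The steps were tested on simulated data. Genes named are all 8 members; of each list in 4 classes, those past 1.5-fold and examples from the 2 highest by level; and the 3 genes most like each member by Pearson r. List genes were matched by symbol, with Il36a, Il36b and Il36g as Il1f6, Il1f8 and Il1f9; Il36rn is not analysed here. TMM scaling used edgeR 4.0.16 in R 4.3.3. Alternatives changed scaling, cell weights, cell filters and clustering, for members and called list genes.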

Additional observations from a re-analysis of the deposited data

How the results depend on the processing

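No paired analysis was possible because each group is 1 library, and for the same reason no replicate could be left out; depth limits the classes with few UMIs. Chosen after seeing the data were 2 alternatives, without barcodes found in both libraries and without the neutrophil states led by genes of other cell types, and all alternatives for the pathway lists. In neutrophil-like cells the Il1b ratio of 1.15 moved to 1.16 with median-of-ratios scaling, 1.14 with every cell weighing the same, 1.17 with doublets kept, 1.14 with at least 500 genes per cell, 1.13 and 1.14 at Leiden resolutions 1 and 0.5, 1.05 with each library clustered alone, 1.14 with members and list genes among the variable genes and 1.14 without those states. The Il1rn ratio of 1.09 moved to 1.11 with equal cell weights, 1.13 with doublets kept and 0.965 with each library clustered alone, where it lay on the other side of 1; the balance ratio of 1.06 moved to 1.03, 1.04 and 1.08 under the same alternatives. The number of called pairs, 45, was 21 without the 5 cells of each library with most UMIs of the gene and 21 with doublets kept. In the 7 granulocyte, monocyte, macrophage and dendritic classes it was 2, against 9, under both of these, at Leiden resolutions 1 and 0.5, and with members and list genes among the variable genes. The share over all genes past the fold was taken in the main setting only, so counts under alternatives have no like share beside them. The fold of the activated over the granule-gene state was 12.1 and 19.2 for Il1b, against 4.02, and 20.3 and 38.6 for Il1rn, against 7.46, at neutrophil resolutions of 0.3 and 1. Of the 45 called pairs 7 kept their direction and call under every alternative that gave a value: Il1a, Il1b, Il1r2 and Il1rap in airway epithelial-like cells, Il1b and Il1r2 in B cell-like cells, and Il1r2 in alveolar macrophage-like cells. In airway epithelial-like cells 24.1% of 8730 genes were past the fold, against 6.01% in B cell-like and 4.94% in alveolar macrophage-like cells. The airway class had 50 S100A4-11 and 118 IgG cells, and 5 cells of each library held 94.2% and 77.3% of its Il1b UMIs. Only 5 or 6 alternatives gave a value there, against 12 in B cell-like and alveolar macrophage-like cells. Some clusterings named no dendritic cell-like, interstitial macrophage-like or airway epithelial-like cells and gave no value there.

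Called ratios that changed side were as follows; the cause was not tested. Without the 5 top cells they were Il1a in B cell-like (1.8) and dendritic cell-like cells (0.458), Il1b in adventitial fibroblast-like (0.551) and pericyte-like cells (0.769), Il1r2 in aerocyte-like (0.513) and interstitial macrophage-like cells (0.79), Nlrp3 in pericyte-like cells (0.729) and Il1rn in type 2 alveolar epithelial-like cells (0.896). With doublets kept they were Il1a in B cell-like (1.33) and large-vessel endothelial-like cells (0.799), Il1b in NK cell-like cells (1.29), and Il1r2 in aerocyte-like (0.679) and the innate lymphoid class (1.47). At Leiden resolution 0.5 they were Il1b in NK cell-like (1.1) and large-vessel endothelial-like cells (0.666), Il1rn in alveolar fibroblast-like (1.23) and type 2 alveolar epithelial-like cells (0.805), and Il1r2 in alveolar fibroblast-like (1.2) and interstitial macrophage-like cells (0.995). At resolution 1 they were Il1a (1.31), Il1rn (1.15) and Il1r2 (1.14) in alveolar fibroblast-like cells. With at least 500 genes per cell they were Il1a (0.815) and Il1rn (1.12) in dendritic cell-like cells, and with equal cell weights Il1a in nonclassical monocyte-like cells (1.15). With each library clustered alone they were Il1rn (2.03) and Il1r2 (1.44) in alveolar fibroblast-like cells, Nlrp3 in immature granulocyte-like cells (0.556), Il1r2 in interstitial macrophage-like cells (0.963), and Il1b (0.32) and Nlrp3 (0.864) in pericyte-like cells. Of the called list genes, those that changed side were Il1f9 in classical monocyte-like cells (1.12), Tlr2 in alveolar fibroblast-like cells (1.16) and Ccl2 in neutrophil-like cells (1.5) with doublets kept, Ccl2 in neutrophil-like cells at resolution 1 (1.02) and in alveolar fibroblast-like cells at resolution 0.5 (1.18), Cxcl1 in general capillary cells with each library clustered alone (1.08) and Cxcl2 there with at least 500 genes per cell (1.14). The number of IL-1-induced genes called lower, 6 in alveolar fibroblast-like cells, was 2 at resolution 0.5 and 3 with each library clustered alone; in general capillary cells, 3 became 5 at resolution 1 and 0 with each library clustered alone.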
